A study of Mus musculus with 4 samples.

Results

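Interferon-stimulated genes are the genes that cells switch on when an interferon binds its receptor. A list of 46 of them was followed in mouse liver, and members were found as the non-control probes whose accession is a RefSeq transcript of a listed gene. Of the 46, 43 had such a probe, with 63 probes in all among 56605 on the array and 43 genes among 23462 that could be named. Mx1, Mx2 and Tgtp1 had no matched probe and were not analysed here. Another member, the 2-5A synthetase gene Oas3, was not well above background on any array. That leaves 42 members seen on at least 1 array and 30 seen by the same probe on all 4.

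Whole livers of male mice were profiled, each on 1 Agilent 1-colour array. The combination group was a type 2 diabetes model in aging mice, treated with astragalus polysaccharide, a carbohydrate fraction of Astragalus root, plus the glucose-lowering drug metformin. The metformin group was the same aging diabetes model given metformin without the polysaccharide. The diabetic group was the aging diabetes model with neither drug, and the control group was naturally aging mice. All groups thus share aging, and the first 3 share the diabetes model. Titles carry a time of 60 d without saying from when it counts. Strain, age, the way diabetes was induced, doses, and any pooling of RNA from several mice are not stated in the labels.

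Each group has 1 array, so there is no spread between animals, no test was possible and no p-value is given. Every difference below is a difference between single arrays. Levels are log2 intensities relative to the 75th percentile of the array, so that 0 is the level which 75% of probes do not exceed, and a difference of 1 is 2-fold. Repeated spots give a technical SD of 0.09 to 0.10 for a log2 difference between arrays, which leaves out variation between mice and RNA preparations. Pearson correlations between arrays ran 0.946 to 0.963 over probes. Spots that the scanner software marked as outliers were dropped. That removed 4.76% of member probes on the combination array, 14.3% on the metformin, 9.52% on the diabetic and 4.76% on the control array. Each comparison that involves a dropped spot therefore covers fewer members.

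Interferons of type I (alpha and beta) act through the receptor Ifnar and factors that include Stat2 and Irf9, which bind the interferon-stimulated response element (ISRE). Interferon-gamma acts through its own receptor, and many of its target genes carry the gamma-activated site (GAS). The Ifit, Oas and Mx families are classic type I targets that block viral RNA, whereas the guanylate-binding proteins (Gbp) and immunity-related GTPases (Irgm, Igtp, Iigp1) are strongly induced by interferon-gamma and attack the vacuoles of intracellular microbes. In liver, hepatocytes, Kupffer cells and endothelium can all respond to both kinds. Many of these genes answer to both, so the families are not exclusive reporters of 1 interferon.

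RefSeq promoters (GRCm38.p6, 250 bases before to 50 after the gene start) were matched by symbol for 33 of the 46 members. They were searched for an ISRE, spelled as GAAA, any 2 bases and GAAA again on either strand, and for a GAS spelled TTCNNNGAA, which reads the same on both strands. An ISRE match was found in 21 of the 33 (63.6%), against 3.99% of 27025 genes in the table. A GAS match was found in 12 (36.4%), against 9.55% of all genes, and both in 8 (24.2%), against 0.614%. Among the interferon-gamma GTPases all 8 with a promoter held an ISRE and 5 also held a GAS. Among the Ifit and Oas genes 4 of 7 held an ISRE, 2 held a GAS and 1 held both. The letters of neither motif occurred in the windows of 8 members, Oasl1, Oasl2, Irf7, Irf9, Cmpk2, Ifi44, Xaf1 and Dtx3l. A match is a description of letters, and no binding was measured.

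The 130 bases before the start are shown for members whose values recur below, in lower case with ISRE and GAS letters in capitals. They were picked after the values were seen. The first 3 are genes of the antiviral kind with ISRE letters and no GAS in the window. The next 5 are GTPases, of which Gbp2 and Gbp3 hold an ISRE alone while Gbp7, Igtp and Irgm2 hold both. The last, Irf1, holds a GAS alone.
Ifit1 (chr19:34640759-34640888, plus strand): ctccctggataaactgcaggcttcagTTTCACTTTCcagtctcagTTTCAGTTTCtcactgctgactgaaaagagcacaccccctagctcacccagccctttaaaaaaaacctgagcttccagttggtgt
Isg15 (chr4:156200819-156200948, minus strand): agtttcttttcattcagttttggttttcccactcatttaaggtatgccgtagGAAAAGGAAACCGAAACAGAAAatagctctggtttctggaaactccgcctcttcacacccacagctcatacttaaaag
Rsad2 (chr12:26456453-26456582, minus strand): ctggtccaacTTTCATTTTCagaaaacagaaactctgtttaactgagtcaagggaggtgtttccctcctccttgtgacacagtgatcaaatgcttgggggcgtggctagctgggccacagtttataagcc
Gbp2 (chr3:142620533-142620662, plus strand): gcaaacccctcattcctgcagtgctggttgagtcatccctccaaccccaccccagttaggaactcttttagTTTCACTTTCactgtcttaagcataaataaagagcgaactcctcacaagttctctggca
Gbp3 (chr3:142559914-142560043, plus strand): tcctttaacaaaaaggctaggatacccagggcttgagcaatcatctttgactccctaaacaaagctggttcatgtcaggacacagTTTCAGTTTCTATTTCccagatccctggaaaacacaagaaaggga
Gbp7 (chr3:142530206-142530335, plus strand): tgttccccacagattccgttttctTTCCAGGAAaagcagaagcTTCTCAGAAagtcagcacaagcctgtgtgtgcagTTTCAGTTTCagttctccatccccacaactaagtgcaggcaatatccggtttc
Igtp (chr11:58199426-58199555, plus strand): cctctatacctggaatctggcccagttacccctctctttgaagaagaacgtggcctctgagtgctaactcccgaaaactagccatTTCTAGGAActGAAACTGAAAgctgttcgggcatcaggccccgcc
Irgm2 (chr11:58214847-58214976, plus strand): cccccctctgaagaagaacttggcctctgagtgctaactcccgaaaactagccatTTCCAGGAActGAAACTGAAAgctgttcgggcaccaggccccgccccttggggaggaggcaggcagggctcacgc
Irf1 (chr11:53769884-53770013, plus strand): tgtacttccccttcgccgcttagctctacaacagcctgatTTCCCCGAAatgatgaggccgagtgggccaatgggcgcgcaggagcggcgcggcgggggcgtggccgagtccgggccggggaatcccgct

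In Ifit1 the ISRE letters begin 104 and 85 bases before the start. Isg15 carries 3 overlapping matches, which form the single run of capitals. In Irgm2 the GAS begins 75 and the ISRE 64 bases before the start, and in Igtp they begin 45 and 34 bases before it. Tgtp1, which had no probe, has them at 88 and 77. The ISRE thus follows the GAS by 11 bases in 3 of the 5 GTPase promoters that hold both. It follows by 53 and 34 bases in Gbp7, and in Gbp5 it lies 80 bases after 1 GAS and ahead of the other.

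**Figure D1:**
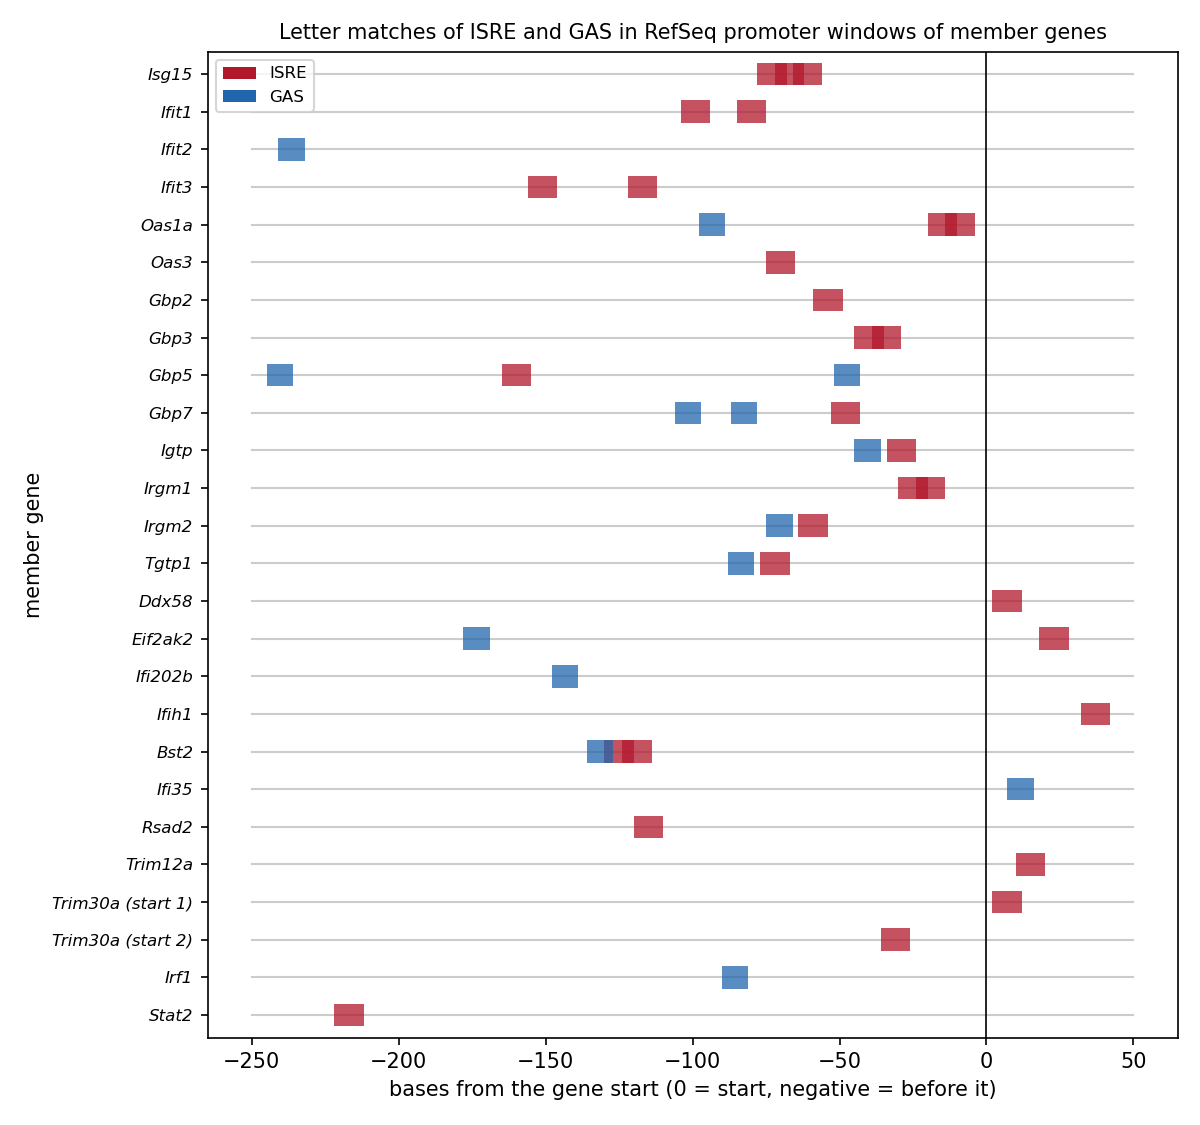
Positions of ISRE and GAS letters in the RefSeq promoter windows of the members, as distance in bases from the gene start (x axis), with genes in rows. All 8 GTPase promoters carry an ISRE mark and 5 carry a GAS mark as well.

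Members ranked the 4 arrays in several ways, with metformin most often highest and combination most often lowest. Of the 30 members measured throughout, 18 (60%) were highest on the metformin array, against 19.5% of 12702 named genes. On the combination array 18 (60%) were lowest, against 19.9% of genes, and none was highest there, against 22.5%. Only Iigp1 (3.33%) was lowest on the metformin array, where 40.1% of all genes had their lowest level. The diabetic array was highest for 7 members (23.3%, against 21.0% of genes), namely Irf9, Stat2, Ddx58, Dhx58, Ifi35, Trim12a and Parp14. All 5 Ifit and Oas genes measured throughout were highest on the metformin array, as were 3 of the 4 GTPases. On the combination array 2 of these 5 and 1 of the 4 GTPases were lowest. The 18 highest on metformin and the 18 lowest on combination were thus only partly the same genes. Some ranks rest on gaps below the technical SD, as in Ifi27, which spanned 0.045.

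**Figure D2:**
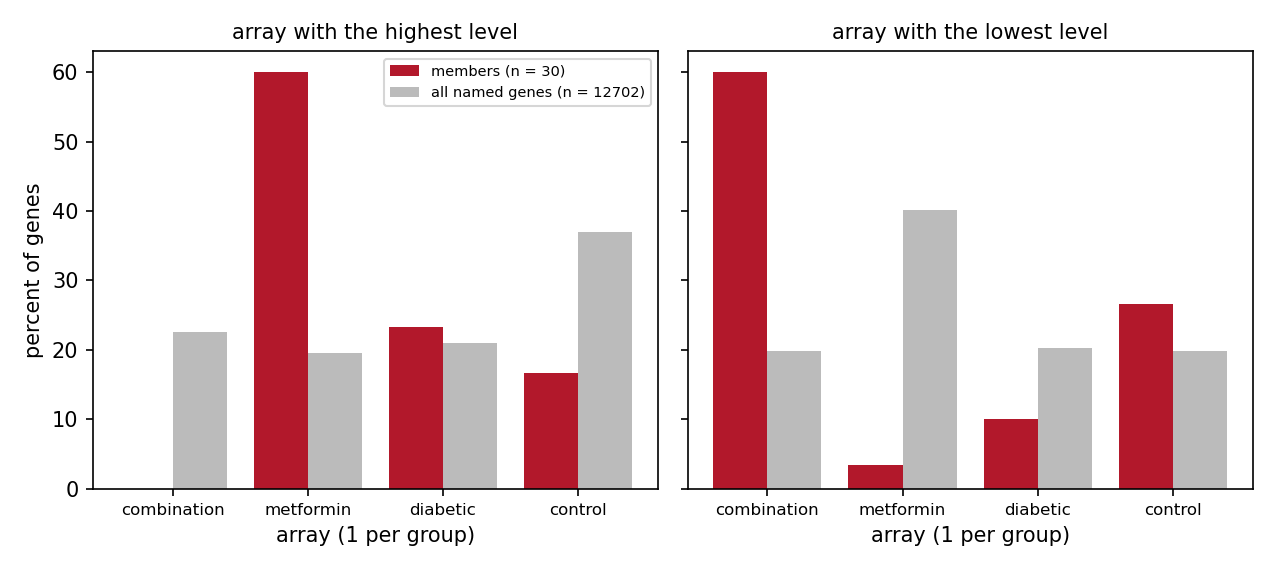
Percent of genes (y axis) that have their highest (left) or lowest (right) level on each array, for 30 members and for all 12702 named genes measured on the 4 arrays. Members are highest most often on the metformin array and lowest most often on the combination array, 60% each.

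Among the Ifit genes, whose proteins bind viral RNA that lacks host cap marks, Ifit2 stood at -0.60 on the combination array, 0.83 on the metformin, -1.45 on the diabetic and -0.84 on the control array. Ifit3 had 2.94 on the combination, 3.62 on the metformin, 2.97 on the diabetic and 2.46 on the control array. Both were highest with metformin. Ifit1 had 3.26 on the metformin, 2.64 on the diabetic and 1.63 on the control array, and its spot on the combination array was an outlier. With outlier spots kept, on a scale of its own, Ifit1 read 1.45 on the combination, 2.56 on the metformin, 1.90 on the diabetic and 0.86 on the control array.

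The Oas genes encode enzymes that make 2-5A, the signal that starts RNA decay by RNase L, and the Oasl genes encode related proteins. Oas1a had 1.52 on the combination array, 3.33 on the metformin, 1.75 on the diabetic and 1.91 on the control array. Oasl1 had 0.51 on the combination, 2.90 on the metformin, 1.38 on the diabetic and 0.03 on the control array. Oasl2 had -0.57 on the combination, 2.08 on the metformin, 0.41 on the diabetic and 0.10 on the control array. In all 3 the metformin array stood apart above the rest, by 1.42 or more. Oas2 had 1 probe above background in some groups, at -1.17 on the metformin, -2.41 on the diabetic and -2.26 on the control array, and was not well above background on the combination array. It was at least 5.37-fold lower on the combination array than on the metformin array. Near-identical copies of Oas1 and Ifit genes can share signal on an array.

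The GTPases were less uniform. Gbp3 had 1.18 on the combination array, 2.35 on the metformin, 0.85 on the diabetic and 0.77 on the control array. Gbp5, which also takes part in inflammasome assembly, had -3.34 on the combination, -2.02 on the metformin, -3.10 on the diabetic and -2.75 on the control array. Irgm2 had 3.57 on the combination, 4.25 on the metformin, 3.91 on the diabetic and 3.23 on the control array. Gbp3 and Gbp5 thus had the metformin array above the other 3 arrays, and Irgm2 had it only 0.34 above the diabetic. Iigp1 ran the other way, at 4.48 on the combination, 4.28 on the metformin, 4.79 on the diabetic and 4.95 on the control array.

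Outlier spots left the other GTPases with gaps. Gbp2 had 1.31 on the metformin and -0.40 on the diabetic array and no value on the other arrays. Gbp6 had -0.95 on the combination, 0.66 on the diabetic and 0.15 on the control array, and Gbp7 had 1.25 on the combination, 1.64 on the metformin and 1.39 on the control array. Igtp had 3.21 on the combination, 3.52 on the diabetic and 3.02 on the control array. Irgm1, a regulator of the other immunity-related GTPases, had on 1 of its 3 probes 0.79 on the combination, 1.96 on the diabetic and 1.80 on the control array, and all 3 probes were outliers on the metformin array. With outlier spots kept, on their own scale, the metformin array was the highest for Gbp2 (0.62), Gbp6 (1.36), Gbp7 (0.94) and Igtp (3.05), and for Irgm1 (1.90) it lay below the diabetic (2.10) and control (1.97) arrays. Of these genes, Gbp6, Igtp and Irgm1 lost their metformin spots, while Gbp2 and Gbp7 lost spots on other arrays. With outlier spots kept, metformin minus diabetic was 1.44 for Gbp6, 0.28 for Igtp and -0.20 for Irgm1.

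**Figure D3:**
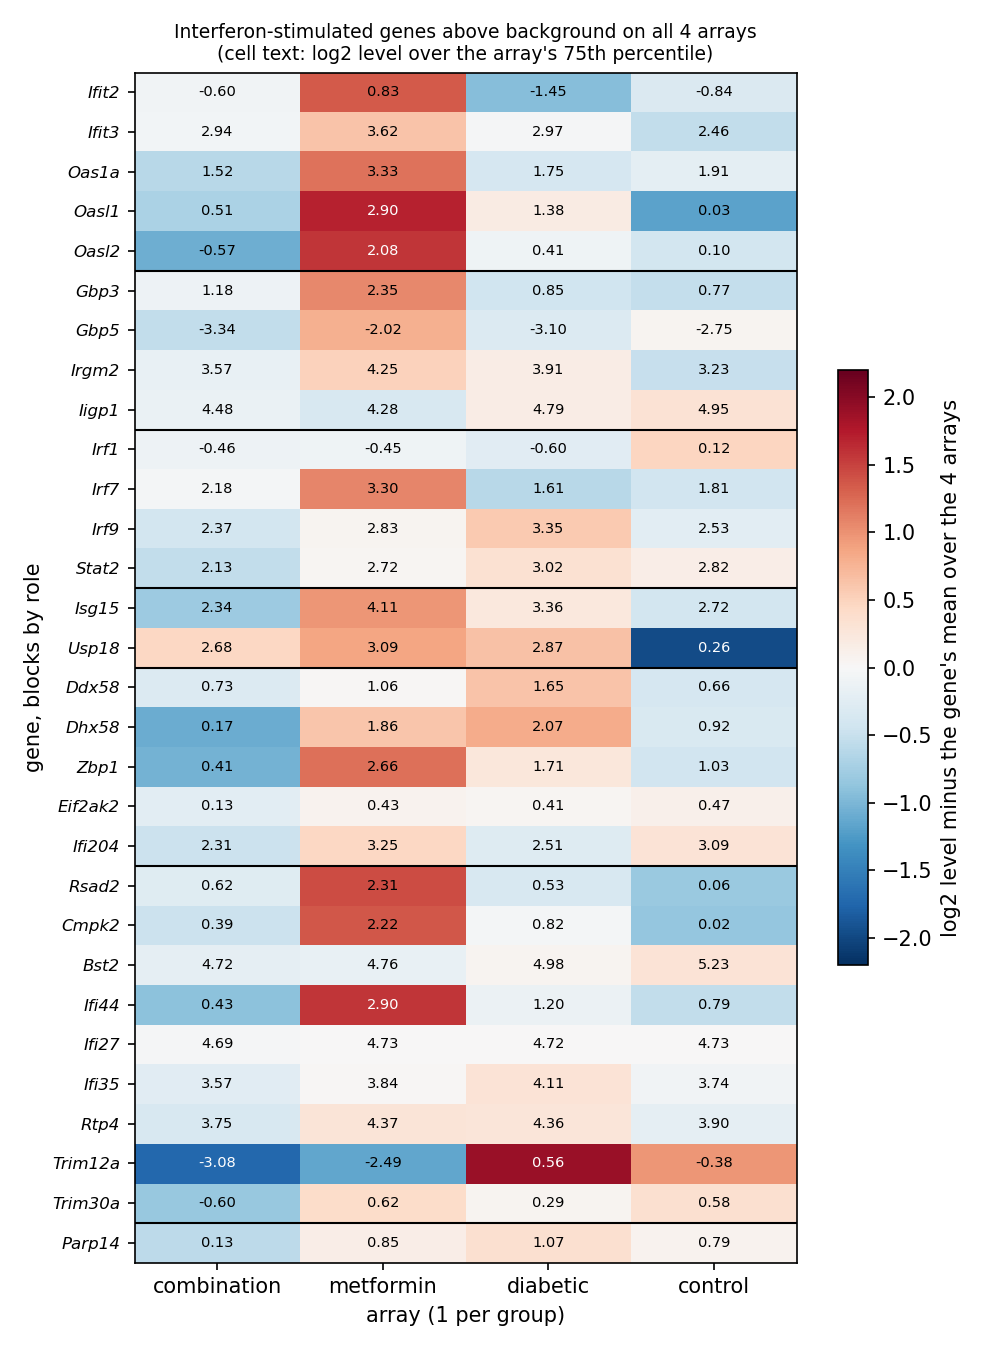
Level of each of 30 members on each array, as the log2 difference from the mean of its 4 arrays (colour), with the level itself printed in each cell, members grouped by role in rows and arrays in columns. The Ifit and Oas rows are highest in the metformin column, and Trim12a is high in the diabetic and control columns.

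The transcription factor Irf7, which amplifies type I interferon production, had 2.18 on the combination array, 3.30 on the metformin, 1.61 on the diabetic and 1.81 on the control array. By the probes measured on all 4 arrays the other factors spanned under 2-fold: Stat2 ranged between 2.13 and 3.02 on 1 of its 2 probes, Irf9 between 2.37 and 3.35 on 1 of its 2 probes, and Irf1, the factor most tied to interferon-gamma, between -0.60 and 0.12. The other probe of Irf9 had 1.90 on the combination, 3.02 on the diabetic and 2.31 on the control array, and an outlier on the metformin array. By those probes Irf9 and Stat2 were highest on the diabetic array, and Irf1 was highest on the control array. The order for Stat2 depends on the outlier spots of its second probe. With them kept, on their own scale, Stat2 averaged 1.35 on the combination, 0.79 on the metformin, 1.08 on the diabetic and 1.39 on the control array, so that combination minus diabetic turned to 0.27, against -0.88 without them, and combination minus metformin to 0.56, against -0.59.

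Isg15 encodes a ubiquitin-like protein, and Usp18 encodes the protease that removes it and also restrains the type I receptor. Isg15 had 2.34 on the combination array, 4.11 on the metformin, 3.36 on the diabetic and 2.72 on the control array. Usp18 had 2.68 on the combination, 3.09 on the metformin, 2.87 on the diabetic and 0.26 on the control array. Usp18 was thus low on the control array alone, with at most 0.42 between any pair of the others, a pattern unlike that of Isg15.

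Sensors of foreign nucleic acid followed several patterns. Dhx58 (LGP2), a partner of the RNA helicase sensors, had 0.17 on the combination array, 1.86 on the metformin, 2.07 on the diabetic and 0.92 on the control array. Zbp1, which senses Z-form nucleic acid, averaged 0.41 on the combination, 2.66 on the metformin, 1.71 on the diabetic and 1.03 on the control array over 2 probes that disagreed in size. Ifih1 (MDA5) had 2.67 on the combination, 3.57 on the metformin and 2.94 on the control array, with an outlier on the diabetic array. Eif2ak2 (PKR) and Ifi204 spanned under 2-fold, and Ifi204, for example, ranged between 2.31 and 3.25. Ddx58 (RIG-I) spanned 1.99-fold as the mean of the 2 probes measured on all 4 arrays, which disagreed in size. The wider of these probes had -0.74 on the combination, -0.64 on the metformin, 0.55 on the diabetic and -0.78 on the control array. Its diabetic minus control difference was 1.32, past 2-fold.

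Ifi202b, a DNA-binding relative of Ifi204, had a pattern of its own. Its probe A_51_P151182 had 0.56 on the combination, 1.27 on the diabetic and 1.81 on the control array, and -5.64 on the metformin array, where it was not well above background. The other probe had 1.07 on the combination and 2.17 on the control array, an outlier on the diabetic array, and was likewise not well above background on the metformin array. Ifi202b was at least 33.1-fold lower on the metformin array than on the diabetic array, and at least 48.2-fold and 61.9-fold lower than on the control array by the 2 probes. It was at least 20.3-fold and 28.9-fold higher on the combination array than on the metformin array.

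Trim12a, a relative of the antiviral factor TRIM5, split the arrays in another way. Its probe measured throughout had -3.08 on the combination, -2.49 on the metformin, 0.56 on the diabetic and -0.38 on the control array. The second probe had 1.86 on the diabetic and 1.06 on the control array, and was not well above background on the combination and metformin arrays. By that probe Trim12a was at least 43.8-fold lower on the combination and at least 49.9-fold lower on the metformin array than on the diabetic array. Both probes placed the drug-treated arrays below the others. Trim genes have near-identical copies that may share signal.

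**Figure D4:**
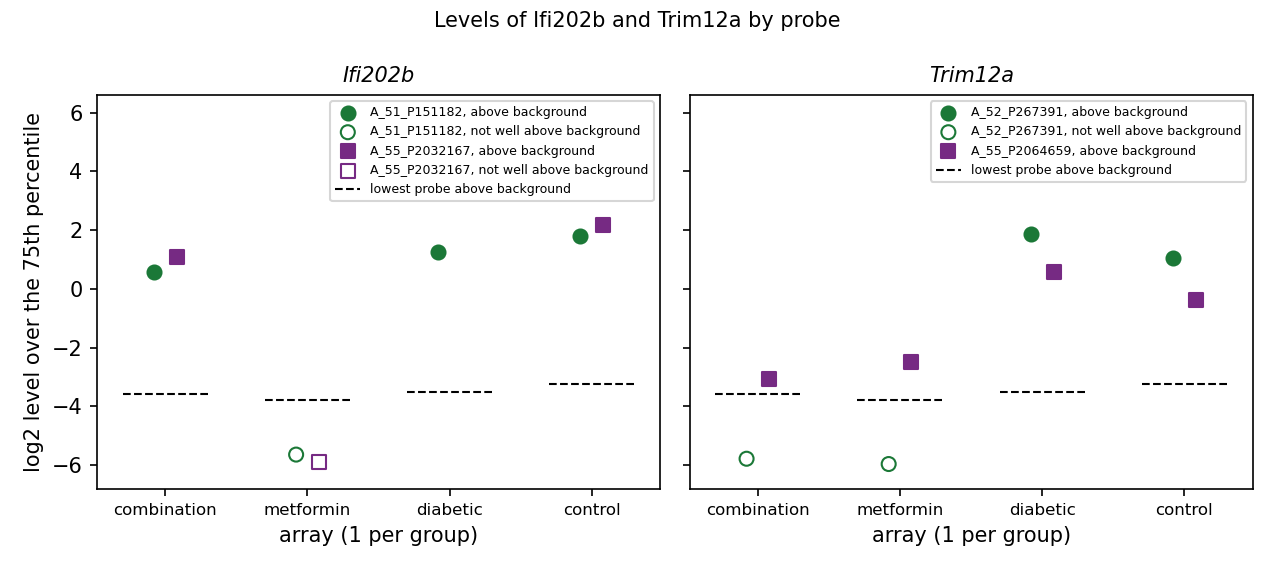
Log2 level over the 75th percentile (y axis) of each probe of Ifi202b (left) and Trim12a (right) on each array (x axis), with open marks where a probe was not well above background and dashes at the lowest level of any probe above it. Ifi202b is below background on the metformin array alone, and 1 probe of Trim12a is below it on the combination and metformin arrays.

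Of the other effectors, Rsad2 (viperin), which makes a chain-terminating nucleotide, had 0.62 on the combination array, 2.31 on the metformin, 0.53 on the diabetic and 0.06 on the control array. Its neighbour Cmpk2, a nucleotide kinase, had 0.39 on the combination, 2.22 on the metformin, 0.82 on the diabetic and 0.02 on the control array. Ifi44 had 0.43 on the combination, 2.90 on the metformin, 1.20 on the diabetic and 0.79 on the control array. These 3 had the metformin array highest by 1.41 or more. Trim30a had -0.60 on the combination, 0.62 on the metformin, 0.29 on the diabetic and 0.58 on the control array, and stood apart by its low combination value. Xaf1, a pro-apoptotic protein, had 1.84 on the combination, 2.95 on the diabetic and 1.87 on the control array by its first probe, with an outlier on the metformin array. Its second probe had -1.83 on the metformin and -2.44 on the diabetic array and was not well above background on the others. Bst2 (tetherin), Ifi27, Ifi35 and Rtp4 spanned under 2-fold, and Bst2 lay between 4.72 and 5.23 and Ifi27, as the mean of 2 probes, between 4.69 and 4.73. The probes of Ifi27 ran in opposite directions between the control and metformin arrays. The first had 5.29 on the control and 4.85 on the metformin array, and the second 4.18 and 4.61.

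Parp9 and its partner Dtx3l, which modify histones and viral proteins, had gaps. Parp9 had 2.97 on the combination, 3.39 on the metformin and 3.33 on the control array, and Dtx3l had 2.31 on the combination, 3.13 on the diabetic and 2.77 on the control array. Parp14, as the mean of 2 probes, ranged between 0.13 and 1.07. Its dimmer probe was not highest on the diabetic array, with -1.02 on the metformin and -1.085 on the diabetic array. In Parp9, Dtx3l and Parp14 the combination array was the lowest of those measured.

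The first comparison sets the diabetic against the control liver. Members were modestly higher on the diabetic array, with a median log2 difference of 0.36 over 38 members, against -0.12 over 13475 named genes. At least 2-fold higher were 5 (13.2%), against 5.94% of all genes, and 0 were 2-fold lower, against 5.78%. The 5 were Usp18 (2.61), Oasl1 (1.35), Dhx58 (1.15), Xaf1 (1.08) and Ifit1 (1.02). The lowest were Irf1 (-0.72) and Ifit2 (-0.61). The Ifit and Oas genes had a median of 0.31 over 7 and the GTPases 0.16 over 7, a gap of 0.15 that is within the range of single genes in each family. With members above background on all 4 arrays, the GTPase median became -0.04. On a scale set by spike-in probes 9 were 2-fold higher, where 9.86% of all genes were, and with normexp background correction 3, where 4.29% were.

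The next comparison sets the metformin against the diabetic liver. Here the Ifit and Oas genes were higher on the metformin array, with a median of 1.52 and all 7 above 0, between 0.62 and 2.28. Over 34 members the median was 0.61, against -0.11 over 13900 genes. At least 2-fold higher were 12 (35.3%), against 8.75% of all genes, and 1 (2.94%) was lower, against 3.55%. The 12 were led by Ifit2 (2.28), Rsad2 (1.78), Gbp2 (1.72), Ifi44 (1.70), Irf7 (1.70), Oasl2 (1.67) and Oas1a (1.58), and the lower gene was Trim12a (-3.05). Ifi202b lies outside these 34, since it was not well above background on the metformin array, and it was at least 33.1-fold lower there. Without the background filter it joins Trim12a as the second lower member. GTPases had a median of 1.08 over 5, with Gbp2, Gbp3 (1.49) and Gbp5 (1.08) past 2-fold and Iigp1 at -0.51. With outlier spots kept, which brings further GTPases in, their median was 0.38.

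Members of the other roles had a median of only 0.09 over 22. Ddx58 (-0.60), Irf9 (-0.53), Stat2 (-0.29), Ifi35 (-0.27) and Bst2 (-0.23) stood below 0. The gap between the Ifit and Oas median and the GTPase median was 0.44, and it ranged up to 1.18 with outlier spots kept. The 2 probes of Rsad2 gave 1.03 and 2.53 and those of Irf7 gave 1.09 and 2.30. The 2 probes of Ddx58 measured on both arrays gave -1.18 and -0.01. The sizes for these genes are thus uncertain while their sign is shared, with 1 probe of Ddx58 near 0. In 2 other genes the probes disagreed in sign, Parp14 with -0.50 and 0.06 and Ifi27 with -0.19 and 0.21.

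The combination against the metformin array sets astragalus polysaccharide plus metformin against metformin alone, with 1 array each. The polysaccharide cannot be told apart there from other differences between the samples. Members were lower on the combination array, with a median of -0.72 over 33 members, against 0.10 over 14363 genes, and of these 33 Iigp1 (0.20) alone was above 0. At least 2-fold lower were 14 (42.4%), against 8.68% of all genes, and 0 were higher, against 2.68%. These counts leave out Ifi202b, which was not well above background on the metformin array and was at least 20.3-fold higher on the combination array, the opposite direction. They also leave out Oas2, at least 5.37-fold lower there. The lowest of the 33 were Oasl2 (-2.65), Ifi44 (-2.46), Oasl1 (-2.38), Zbp1 (-2.25), Cmpk2 (-1.83), Oas1a (-1.81) and Isg15 (-1.77). Ifit and Oas genes had a median of -1.81 over 5, of which 4 were 2-fold lower. GTPases had a median of -0.67 over 5, of which Gbp5 (-1.32) and Gbp3 (-1.17) were 2-fold lower. The gap between these medians was -1.14.

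Against the diabetic array, which has neither drug, the combination array was lower in 31 of 36 members, with a median of -0.58, against 0.04 over 14108 genes. At least 2-fold lower were 8 (22.2%), against 5.79% of all genes, and 0 were higher, against 3.98%. The 8 were Trim12a (-3.64), Dhx58 (-1.90), Gbp6 (-1.61), Zbp1 (-1.29), Irgm1 (-1.17), Xaf1 (-1.11), Irf9 (-1.05) and Isg15 (-1.02). Ifit2 (0.85), Irf7 (0.57), Gbp3 (0.33), Irf1 (0.14) and Rsad2 (0.09) were above 0. The Ifit and Oas median was -0.23 over 5 and the GTPase median -0.31 over 7, a gap of 0.08 whose sign turned in 4 alternatives. With each array's own 75th percentile 15 members were 2-fold lower, where 9.41% of all genes were, and with members above background on all 4 arrays 4 were, where 5.61% were. The 2 probes of Zbp1 gave -2.57 and -0.02. These comparisons share the diabetic or the metformin array, so a single array's deviation enters several of them.

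**Figure D5:**
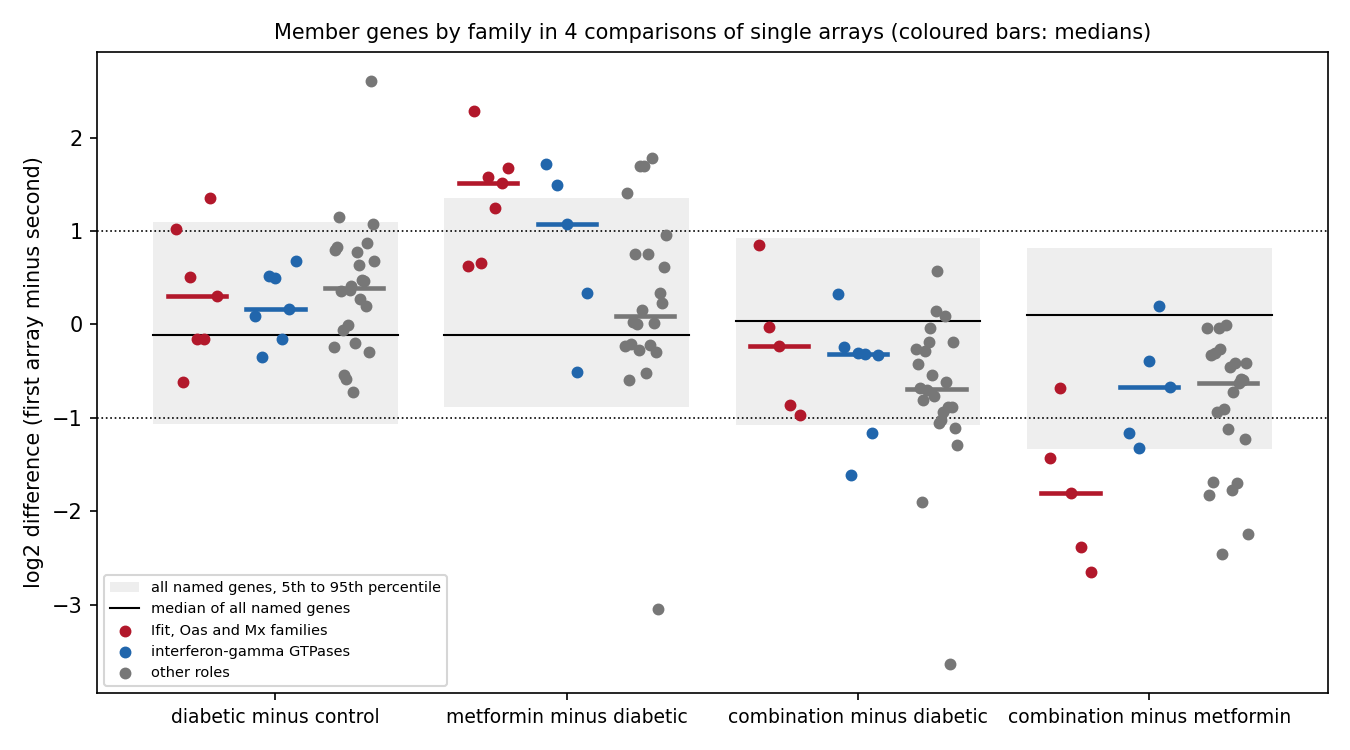
Log2 difference of each member (points) in 4 comparisons of arrays, by family, with the median of each family as a coloured bar, the median of all named genes as a black line, their range from the 5th to the 95th percentile as a grey band, and dotted lines at 2-fold. The Ifit and Oas points lie above 0 for metformin minus diabetic and below 0 for combination minus metformin.

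Both drug-treated arrays can also be set against the control array. On the metformin array 16 of 35 members were at least 2-fold higher than on the control array (45.7%, against 7.98% of all genes) and 1 was lower (2.86%, against 5.78%), with a median of 0.72 against -0.20 over 13506 genes. Ifi202b, at least 48.2-fold lower on the metformin array, is outside the 35. All 7 Ifit and Oas genes measured were among the 16, with a median of 1.64, while 2 of 5 GTPases were, with a median of 0.72. On the combination array 1 of 39 members was at least 2-fold higher than on the control array (2.56%, against 4.55%) and 4 were lower (10.3%, against 5.94%), with a median of -0.36 against -0.08 over 13845 genes. Both comparisons share the control array.

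Other genes of the pathway were read from 4 lists. Of 21 interferon genes, 18 had a probe, 7 were above background on some array and 4 could be compared. Ifna9 had -0.18 on the combination array, -0.81 on the metformin, -0.99 on the diabetic and -0.15 on the control array. No compared ligand was 2-fold apart. The rest of the 7 were each above background on a single array, so no difference could be given. Ifng, the interferon-gamma gene, was above it on the metformin array (-3.00). Its levels elsewhere were -4.66 on the combination, -5.60 on the diabetic and -5.41 on the control array. Ifna1 (-3.38) and Ifna13 (-2.59) were above background on the combination array. These levels lie near the background. Among 16 genes for receptors and JAK-STAT signalling, metformin minus diabetic had a median of 0.22 over 15, with 2 at least 2-fold higher (8.75% of all genes) and 0 lower (3.55% of all genes). Combination minus metformin had a median of -0.42 over 15, with 0 higher (2.68% of all genes) and 3 lower (8.68%). Diabetic minus control had a median of -0.37 over 14, with 0 higher (5.94% of all genes) and 3 lower (5.78%).

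Within that list the feedback inhibitors stood furthest apart. Socs3, which restrains cytokine receptors, had 1.52 on the combination, 1.95 on the metformin, 0.93 on the diabetic and 3.60 on the control array. Socs1, which restrains JAK kinases, had -3.47 on the combination, -2.45 on the metformin, -3.16 on the diabetic and -1.19 on the control array. Both were highest on the control array, which was also the array where named genes most often had their highest level. There 8 of the 30 members (26.7%) were lowest, against 19.8% of all named genes. Whether the inhibitors and the members are linked was not tested.

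Among 19 upstream sensors and adaptors, metformin minus diabetic had a median of 0.33 over 16, with 3 at least 2-fold higher (8.75% of all genes), and combination minus metformin -0.51 over 17, with 4 lower (8.68% of all genes). Tlr7, an endosomal RNA receptor, had -1.97 on the combination, 0.06 on the metformin, -0.38 on the diabetic and -0.32 on the control array. Of 70 further interferon-stimulated genes, 64 had a probe. For metformin minus diabetic, 12 of 54 were at least 2-fold higher and 1 lower, against 8.75% and 3.55% of all genes, with a median of 0.22. For combination minus metformin 1 of 56 was higher and 20 lower, against 2.68% and 8.68% of all genes, with a median of -0.61. Oas1g had -1.21 on the combination, 1.56 on the metformin, -0.70 on the diabetic and -0.71 on the control array, and Cxcl9, an interferon-gamma chemokine, had 1.02, 2.47, 0.41 and 1.35 in the same order.

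Markers of liver cell types, and genes of exocrine pancreas, which is not a liver cell type, also differed between the arrays. In whole tissue, fewer cells of a type and less RNA per cell cannot be told apart. The summed level of 11 of 16 T, NK and B lymphocyte markers, in multiples of the 75th percentile signal, was 5.80 on the combination array, 16.0 on the metformin, 4.37 on the diabetic and 10.4 on the control array, and Klrb1c and Cd79a were among the markers never well above background. For metformin minus diabetic 8 of 12 were at least 2-fold higher (8.75% of all genes) and 0 lower (3.55%), with a median of 1.62. For combination minus metformin 8 of 11 were at least 2-fold lower (8.68% of all genes) and 0 higher (2.68%), with a median of -1.66. Kupffer cell markers (11 of 12) summed to 90.2 on the combination, 132.6 on the metformin, 105.4 on the diabetic and 163.0 on the control array. Neutrophil markers (4 of 8) summed to 3.75, 7.93, 5.65 and 16.9 in that order, and exocrine pancreas genes (7 of 16) to 12.9, 36.8, 23.4 and 131.4. Hepatocyte markers (9 of 10) summed to 348.9, 262.7, 345.9 and 446.5, and none of the 10 was below background throughout. Dendritic cell markers (6 of 11) summed to 55.6, 54.9, 54.7 and 71.1 and sinusoidal endothelial markers (8 of 8) to 52.1, 51.7, 42.04 and 63.6 in the same order, with Xcr1 never well above background. Most of the dendritic cell sum came from Siglech and Bst2, and Bst2 is itself a member. For metformin minus diabetic, 3 of 6 dendritic cell markers were at least 2-fold higher (8.75% of all genes) and 0 lower (3.55%). Their median was 0.83. For combination minus metformin, 1 of 7 was at least 2-fold lower (8.68% of all genes) and 0 higher (2.68%), with a median of -0.42. The part of these cell types in the differences of the interferon-stimulated genes was not tested.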

How the data were processed

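Total RNA of whole mouse liver was measured on 4 Agilent 1-colour arrays after Cy5 labelling, per the labels' protocols. The deposited scanner files hold spot intensities made by Feature Extraction 11.5.1.1 on a grid built for mm9, per the file headers. Agilent Feature Extraction 10.7 is listed in the submitters' processing notes. Processed signal was taken as the intensity, already background-corrected by that software. The authors' deposited value table holds log2 values, each array with a median of 7.84, with a normalization that the labels do not state. The slide (1) and the scan time (1) were common to the arrays.

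Levels were log2 processed signal minus each array's 75th percentile over 51538 non-control probes with no outlier spot on any array. A probe was above background where at least 50% of its spots were marked well above background, as were 31980 probes on the combination array, 31867 on the metformin, 29828 on the diabetic and 29398 on the control array. Differences were averaged over a gene's probes above background on both arrays. For a bound, the dim side was the lowest level of any probe above background, or the probe's own level if that was higher. Genes were named by accession through the RefSeq table of GRCm38.p6 (33767 of 56605 probes), and calls were differences of at least 2-fold. The number of arrays limits the precision. The members, roles, lists and naming rule were chosen with earlier results of these data known. Named members are those at least 2-fold apart across arrays or measured on some arrays only, with examples of the rest. The calculation was tested on simulated data. Python 3.11.15, numpy 2.4.6, pandas 2.3.3 and limma 3.58.1 in R 4.3.3 were used, the last for normexp (offset 50). The 12 alternatives are given at the end, and 1 of them, centring on the median of all genes, was chosen after seeing the data.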

Additional observations from a re-analysis of the deposited data

How the results depend on the processing

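The 16 results were recomputed under 12 alternatives, and of 192 values 157 stayed close to those reported, 30 moved and 5 reversed sign. Some of the 157 could not have moved, as described below, and counts taken as close still varied. Members at least 2-fold lower for combination minus metformin ranged from 13 to 20. Those at least 2-fold higher for metformin minus diabetic ranged from 10 to 16. The spike-in scale gave 20 and 16, against 16.2% and 15.1% of all genes. A gene's brightest probe only gave the 13, against 8.91%, and normexp gave 10, against 6.17%. Medians in these paragraphs are the members' median minus the median of all named genes, 0.48 for diabetic minus control, 0.73 for metformin minus diabetic, -0.61 for combination minus diabetic and -0.83 for combination minus metformin on the scale used. With each array's own 75th percentile, 15 of 36 members were at least 2-fold lower for combination minus diabetic, against 9.41% of all genes. Quantile normalization gave 15 there too, against 8.73% of all genes, and a median of -0.94 for combination minus metformin. Its gap between the Ifit and Oas median and the GTPase median was 0.79 for metformin minus diabetic. That gap was -0.0215 for combination minus diabetic and -1.30 for combination minus metformin. The spike-in scale gave 9 of 38 members at least 2-fold higher for diabetic minus control, against 9.86% of all genes. With outlier spots kept these medians were 0.45, -0.47 and -0.98 for metformin minus diabetic, combination minus diabetic and combination minus metformin, and the gaps 1.18, -0.0244 and -0.82. Normexp gave 3 of 38 members higher for diabetic minus control, against 4.29% of all genes. Its gaps were 0.71, -0.023 and -1.04 in the order just used, and its median was -0.93 for combination minus metformin.

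Without the background filter, the gap was -0.0873 for diabetic minus control and -0.11 for combination minus diabetic. The medians were -0.48 for combination minus diabetic and -1.03 for combination minus metformin. For metformin minus diabetic, 2 of 37 members (Ifi202b and Trim12a) were then lower, against 3.9% of all genes. For combination minus metformin, 1 of 37 (Ifi202b) was higher, against 3.24%. With members above background on all 4 arrays, diabetic minus control had 3 of 30 higher, against 6% of all genes, and a gap of 0.34. Metformin minus diabetic then had a median of 0.47 and a gap of 0.87. Combination minus diabetic had a median of -0.42 with 4 of 30 lower, against 5.61% of all genes. Combination minus metformin had a median of -0.96 and a gap of -0.89. The authors' value table gave gaps of 0.69 for metformin minus diabetic and -1.04 for combination minus metformin, and a median of -0.96 for the second. The cause was not tested, except that filters change which members are measured. The members' medians so centred kept their sign under the 12 alternatives, at 0.41 to 0.51, 0.45 to 0.74, -0.65 to -0.42 and -1.03 to -0.78 for diabetic minus control, metformin minus diabetic, combination minus diabetic and combination minus metformin. The gap for combination minus diabetic changed sign in 4 alternatives. The spike-in scale moved the median of all genes to 0.14 for diabetic minus control and 0.26 for metformin minus diabetic. It moved to 0.01 for combination minus diabetic and -0.30 for combination minus metformin. No paired analysis was possible because each group has 1 array. Weak probes near background limit what can be read of Oas2, Oas3 and Gbp5.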

Other observations

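Tgtp2, an interferon-gamma GTPase outside the member list, had 2.63 on the combination array, 2.63 on the metformin, 3.73 on the diabetic and 3.53 on the control array, so that it was low on both drug-treated arrays. Irf8, a factor of myeloid cells, had 0.64 on the combination, 1.52 on the metformin, 0.17 on the diabetic and 1.76 on the control array. Ifi205, a relative of Ifi204, had -0.85 on the combination, 1.29 on the metformin, -1.27 on the diabetic and 0.33 on the control array. These genes were named after their values were seen.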
